A study of Mus musculus with 9 samples.

Results

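A set of 44 antiviral interferon-stimulated genes was examined in the 3 dendritic cell (DC) subsets of unstimulated mouse spleen. The genes were taken by symbol from the table of read counts, which lists 39179 genes, and each of the 44 symbols was listed once. All 44 had enough reads for a test, as had 13819 genes of the whole table. RNA was sequenced from CD8pos conventional DC 1 (cDC1), CD8neg conventional DC 2 (cDC2) and plasmacytoid DC (pDC) of C57BL/6J mice at steady state, with no treatment and no engineered allele in any group. The study describes its sorted cDC1 as CD11c-high, CD317-low, CD8-positive and CD11b-negative, cDC2 as CD11c-high, CD317-low, CD8-negative and CD11b-positive, and pDC as CD11c-intermediate, CD317-high and CD11b-negative. Its methods for sorting name antibodies to CD11c, CD45RA, CD8, CD11b and CD49b but not to CD317, so whether CD317 was used for these libraries is not settled by the sources used here. Each subset had 3 libraries, 1 from each of 3 pools of 15 to 17 mice, so the spread between replicates is that between pools, not between single mice. The mice were 6 to 12 weeks old per the study's methods, and the labels do not give their sex.

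Type I interferons bind the receptor IFNAR, and the kinases JAK1 and TYK2 pass the signal on. It leads to assembly of the factor ISGF3, which binds interferon-stimulated response elements (ISRE) in the promoters of interferon-stimulated genes. The products sense viral nucleic acid, block entry, copying and release of virus, or modify other proteins with ISG15, ubiquitin or ADP-ribose. Many of these genes are also transcribed at a low level without infection, and pDC are known for releasing large amounts of type I interferon once they are triggered.

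Counts on genes summed to between 15806597 and 32453789 per library, and 3 counts corresponded to between 0.0908 and 0.203 CPM (counts per 1000000 after TMM scaling), a floor that covers counting error only. Summed markers followed the labels, in part through the gates, since the lists hold Cd8a and Itgam, which encode sorted antigens, and Bst2, which encodes CD317. The 8 cDC1 markers reached 7376 to 7969 CPM in cDC1 against at most 2182 in the other subsets, and the 8 pDC markers reached 13436 to 14168 CPM in pDC against at most 354. The 8 cDC2 markers stood at 2319 to 2479 CPM in cDC2 and at 1934 to 2084 in pDC, where Cd4 and Sirpa were also high, and at 119 to 193 in cDC1. Among other cell types, the 8 neutrophil genes summed to 109 to 137 CPM in cDC2 against 5.32 to 37.4 elsewhere, most of it Mmp9, while Ly6g had 12 reads over all 9 libraries. NK cell genes summed to 28.5 to 120 CPM in cDC2, 11.9 to 39.7 in cDC1 and 13.2 to 49.96 in pDC, and red pulp macrophage genes to 210 to 418, 167 to 253 and 65.9 to 263 CPM. The monocyte list reached 2234 to 3089 CPM in pDC, mostly Ly6c2, and the B cell list 2739 to 4181 CPM, nearly all of it Ighm, against at most 633 and 625 CPM elsewhere. T cell genes summed to at most 77.9 CPM and erythroid genes to at most 68.0. No list had a gene at 0 in a whole subset, and the part of such RNA in the differences described here was not tested. In bulk RNA, fewer cells that carry a transcript and less of it per cell cannot be told apart.

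The set did not follow one order of subsets. Each gene was placed in a class by the 3 pairwise comparisons, all from one edgeR quasi-likelihood fit with Benjamini-Hochberg adjustment over the 13819 genes and a threshold of 0.05 on the adjusted p. A gene was called cDC2-high where cDC2 stood above both other subsets past the threshold, and the other classes were named in the same way. Among the 44 genes, 11 were cDC2-high, against 6.53% of all genes tested, and 12 were pDC-high, against 17.2%. A further 2 were cDC1-high (7.14% of all genes), 5 were cDC1-low, that is below both other subsets with no difference between those (2.71%), 4 were pDC-low (11.1%) and 0 were cDC2-low (2.12%). One pair alone differed for 4 genes (13.9%), and no pair differed for 6 genes (39.3%). With the replicate number as a block in the fit, 16 were cDC2-high (9.26%), 13 pDC-high (21.2%) and 2 without a difference (28.5%). The 12 pDC-high genes include Bst2, which encodes CD317, an antigen that the gate for pDC may have used.

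**Figure D1:**
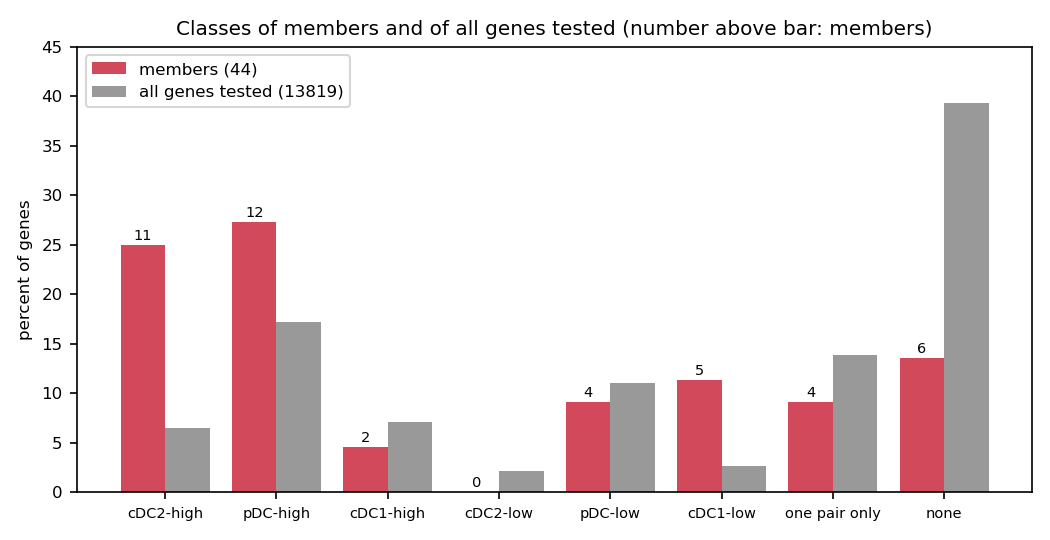
Percent of the 44 genes (red) and of all 13819 genes tested (grey) in each class, with the number of genes of the set above its bar. Classes are those of the fit without a replicate block. The cDC2-high class held 25.0% of the set and 6.53% of all genes, and the class with no pair past the threshold held 13.6% and 39.3%.

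Pair by pair, 21 of 44 genes stood higher in cDC2 than in cDC1, where 12.7% of all genes were, and 5 were lower (11.7% of all genes). In pDC, 23 were higher than in cDC1 (24.3% of all genes) and 6 lower (24.4%). Between pDC and cDC2, 12 were higher in pDC (22.5%) and 18 lower (23.3%). Bst2 is among the 23 and the 12 genes higher in pDC. The median log2 fold change of the 44 genes was 0.70 in cDC2 and 0.74 in pDC against cDC1, and -0.52 in pDC against cDC2, beside medians of 0.03, 0.02 and -0.01 over all genes tested. The 3 comparisons share their libraries and are not independent of each other.

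**Figure D2:**
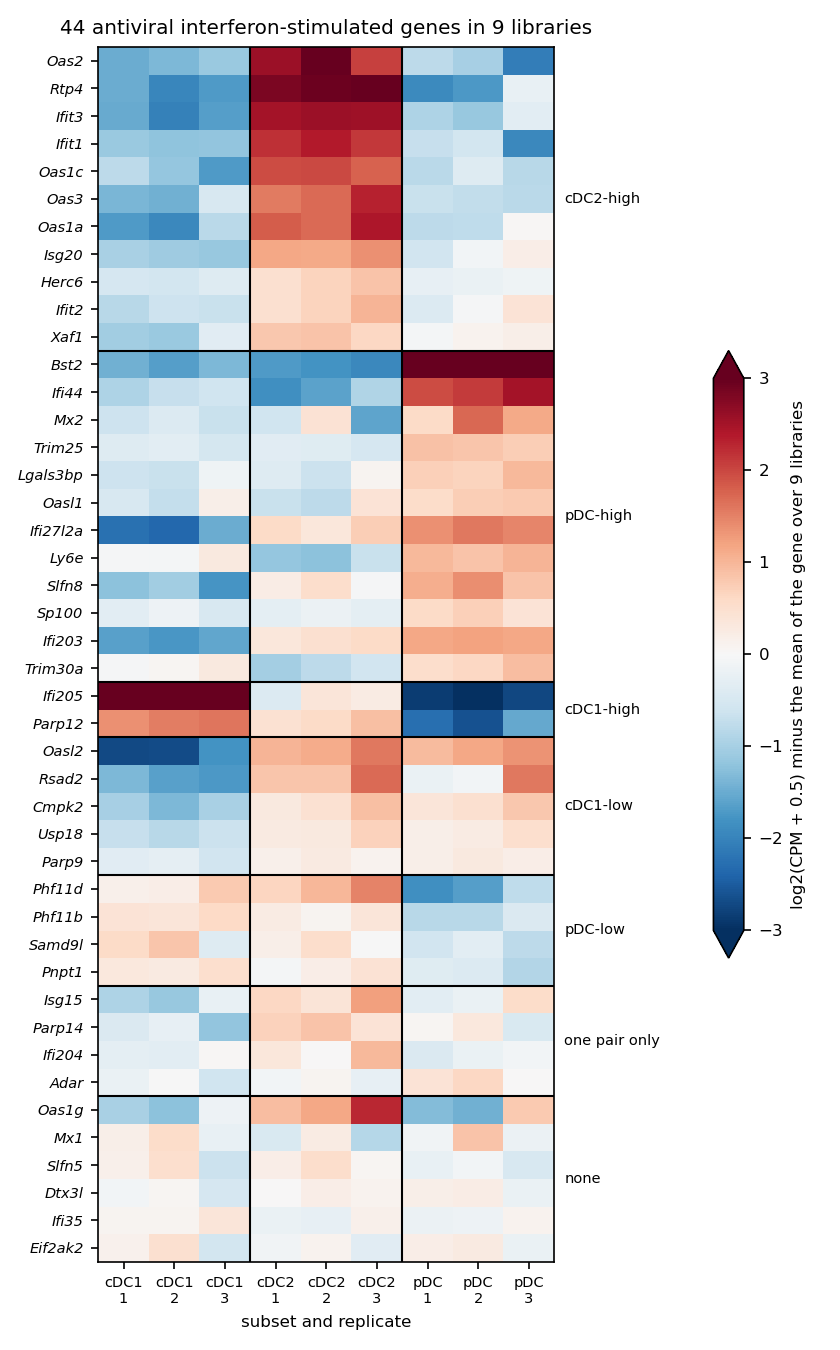
Level of each gene in each of the 9 libraries, as log2(CPM + 0.5) minus the mean of that gene, in columns by subset and replicate and in rows by class. The 11 cDC2-high genes are red in all 3 cDC2 columns, and the 12 pDC-high genes are red in all 3 pDC columns.

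Together the 44 genes took between 0.378% and 1.06% of all counts. The share was 0.466% to 0.510% in cDC1, 0.378% to 0.460% in cDC2 and 1.02% to 1.06% in pDC, so the ranges did not overlap. Most of the pDC share came from Ly6e and Bst2. Without these genes the share was 0.219% to 0.2504% in cDC1, 0.258% to 0.297% in cDC2 and 0.304% to 0.337% in pDC. Per length of exon, the median level over the set was 5.93 CPM per kb in cDC1, 13.9 in cDC2 and 8.17 in pDC. Ranked per kb, the highest level belonged to Ly6e in cDC1 and cDC2, at 684 and 325 CPM per kb, and to Bst2 in pDC, at 2575. The lowest belonged to Oas2 in cDC1 and pDC, at 0.0796 and 0.0962 CPM per kb, and to Ifi44 in cDC2, at 0.827. Exon length here merges all annotated transcripts, at 3784 bases from 16 transcripts for Ly6e and 903 from 2 for Bst2. The ranks depend on that length, and in CPM alone Ly6e stood above Bst2 in pDC, at 4743 against 2325.

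Promoter sequences are shown for a few genes of the set, to set the level of each gene beside the elements through which the set is classically regulated. Of the 44 genes, 34 had a window in the RefSeq promoter table (GRCm38.p6), which runs from 250 bases before to 50 bases after the start of transcription. An ISRE core, searched on both strands as GAAA, any 2 bases and GAAA again (TTTC in place of GAAA on the other strand), was in at least 1 window of 16 of the 34 genes (47.1%), against 3.99% of all 27025 genes with a window. It was found in 5 of 9 cDC2-high genes, 4 of 9 pDC-high genes, 1 of 2 cDC1-high, 1 of 3 cDC1-low, 1 of 4 pDC-low, 1 of 2 with one pair past the threshold and 3 of 5 with none. The STAT site TTCNNNGAA, which reads the same on both strands, was in 7 of 34 genes (20.6%), against 9.55% of all genes. A match is a run of letters and was not tested for binding, and neighbouring matches can overlap by GAAA. The 170 bases before the start site follow, 5′ to 3′ on the strand of the gene, with ISRE matches in capitals.
Ifit3, chr19:34583359-34583528, plus strand: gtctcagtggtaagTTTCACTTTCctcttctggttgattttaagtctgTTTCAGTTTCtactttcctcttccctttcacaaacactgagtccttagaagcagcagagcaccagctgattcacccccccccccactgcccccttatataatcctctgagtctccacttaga
Oas1a, chr5:120907526-120907695, minus strand: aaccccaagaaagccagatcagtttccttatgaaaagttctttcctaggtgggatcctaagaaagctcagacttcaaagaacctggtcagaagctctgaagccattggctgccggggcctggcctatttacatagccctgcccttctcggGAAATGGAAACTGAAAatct
Bst2, chr8:71537473-71537642, minus strand: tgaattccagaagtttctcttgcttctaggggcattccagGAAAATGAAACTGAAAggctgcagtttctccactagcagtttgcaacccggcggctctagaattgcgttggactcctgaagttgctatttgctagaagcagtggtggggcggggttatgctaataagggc
Ifi44, chr3:151749911-151750080, minus strand: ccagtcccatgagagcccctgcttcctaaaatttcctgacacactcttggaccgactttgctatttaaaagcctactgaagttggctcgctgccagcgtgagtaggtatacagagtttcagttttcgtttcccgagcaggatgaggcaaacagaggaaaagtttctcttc
Ifi205, chr1:174031756-174031925, minus strand: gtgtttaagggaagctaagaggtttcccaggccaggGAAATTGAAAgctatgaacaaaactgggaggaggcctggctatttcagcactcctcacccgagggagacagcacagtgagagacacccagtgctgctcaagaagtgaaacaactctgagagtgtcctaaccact
Isg15, chr4:156200819-156200988, minus strand: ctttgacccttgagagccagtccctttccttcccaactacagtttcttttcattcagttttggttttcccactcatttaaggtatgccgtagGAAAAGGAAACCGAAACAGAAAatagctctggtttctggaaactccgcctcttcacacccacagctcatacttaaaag
Eif2ak2, chr17:78882573-78882742, minus strand: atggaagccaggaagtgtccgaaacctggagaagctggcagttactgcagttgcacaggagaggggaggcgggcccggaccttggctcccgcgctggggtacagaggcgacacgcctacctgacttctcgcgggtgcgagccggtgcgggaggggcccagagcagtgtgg
Ifit3, Bst2 and Eif2ak2 were taken by rule as the leading cDC2-high gene with a window, the leading pDC-high gene and the gene with the smallest differences. The other 4 were added with their values known. The cDC2-high genes with a window but no match, Ifit2, Isg20, Herc6 and Xaf1, are not shown. The cDC2-high genes Ifit3 and Oas1a held matches starting 156 and 122 bases, and 20 and 14 bases, before the start site. The pDC-high gene Bst2 held overlapping matches 130 and 124 bases before it, and Ifi44, also pDC-high, held no exact match in its window. Only exact matches were counted, so runs that differ from the core by 1 base, as in the Ifi44 stretch shown, were not. Isg15, highest in cDC2, held 3 overlapping matches from 78 bases before the start. Eif2ak2, which did not differ between subsets, had its one match 19 bases after the start, outside the stretch shown.

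The IFIT proteins, which bind viral RNA that lacks the host cap and block its translation, were encoded by 3 neighbouring cDC2-high genes on chromosome 19 of mm10. Ifit3 (ENSMUSG00000074896, chr19:34583531-34588731) stood at 53.9, 56.8 and 56.1 CPM in cDC2 replicates 1, 2 and 3, at 2.91, 1.88 and 2.57 in cDC1 and at 4.57, 3.90 and 7.30 in pDC. The cDC2 libraries lay far above all others, with a log2 fold change of 4.50 against cDC1 (SE 0.27, edgeR adjusted p = 4.38e-06). The pDC libraries lay below them by 3.41 (SE 0.25, edgeR adjusted p = 2.99e-06) and above cDC1 by 1.09 (SE 0.25, edgeR adjusted p = 0.00541). Reads of Ifit3 are uncertain, since 41.1% of the 75-base windows of its transcripts also occur in its copy Ifit3b, and how the counting treated such reads is not given in the sources used here.

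Ifit1 (ENSMUSG00000034459, chr19:34640871-34650009) reached 23.7, 27.0 and 22.6 CPM in cDC2, against 1.97, 1.79 and 1.83 in cDC1 and 2.78, 3.14 and 0.884 in pDC. All cDC2 libraries lay above all others, and cDC1 and pDC overlapped. Its log2 fold change of cDC2 over cDC1 was 3.71 (SE 0.38, edgeR adjusted p = 8.99e-05) and that of pDC against cDC2 was -3.40 (SE 0.37, edgeR adjusted p = 4.92e-05). The step was smaller in Ifit2, the third gene of the cluster, at 39.4 ± 7.72 CPM (SD, n = 3) in cDC2 against 23.7 ± 6.88 in pDC and 14.2 ± 1.18 in cDC1. Its difference between pDC and cDC2 (-0.73, edgeR adjusted p = 0.0206) was lost when pDC replicate 1, pDC replicate 2 or cDC2 replicate 3 was left out, with adjusted p up to 0.0755. The one between pDC and cDC1 (0.74, edgeR adjusted p = 0.0201) was lost without cDC1 replicate 1 or pDC replicate 3, with adjusted p up to 0.0729.

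The other 3 genes for RNA binding, editing and decay had other orders. Eif2ak2 (ENSMUSG00000024079, chr17:78852564-78882573) encodes PKR, the kinase that stops translation on double-stranded RNA. It stood at 54.6, 70.1 and 34.3 CPM in cDC1, with 46.7, 53.9 and 39.5 in cDC2 and 57.2, 60.8 and 43.5 in pDC. The subsets overlapped throughout, and the largest of its 3 log2 fold changes was 0.20 in size (SE 0.24, edgeR adjusted p = 0.538), for pDC against cDC2. Adar, which edits adenosine in double-stranded RNA, was higher in pDC, at 166 ± 34.9 CPM (SD, n = 3), than in cDC1, at 108 ± 21.1, with a log2 fold change of 0.62 (edgeR adjusted p = 0.0203). That call was lost without pDC replicate 1, pDC replicate 2 or cDC1 replicate 3 (edgeR adjusted p up to 0.0896). In cDC2 Adar stood at 122 ± 13.4 CPM, 0.45 below pDC on the log2 scale (edgeR adjusted p = 0.0781), and at 0.43 with an adjusted p of 0.00124 with the replicate number as a block. Exons of Chrnb2 on the other strand overlap 16.8% of the exon bases of Adar. Pnpt1, a mitochondrial RNA exonuclease, was pDC-low, at 16.5 ± 3.07 CPM against 31.3 ± 2.83 in cDC1 and 28.1 ± 4.94 in cDC2.

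**Figure D3:**
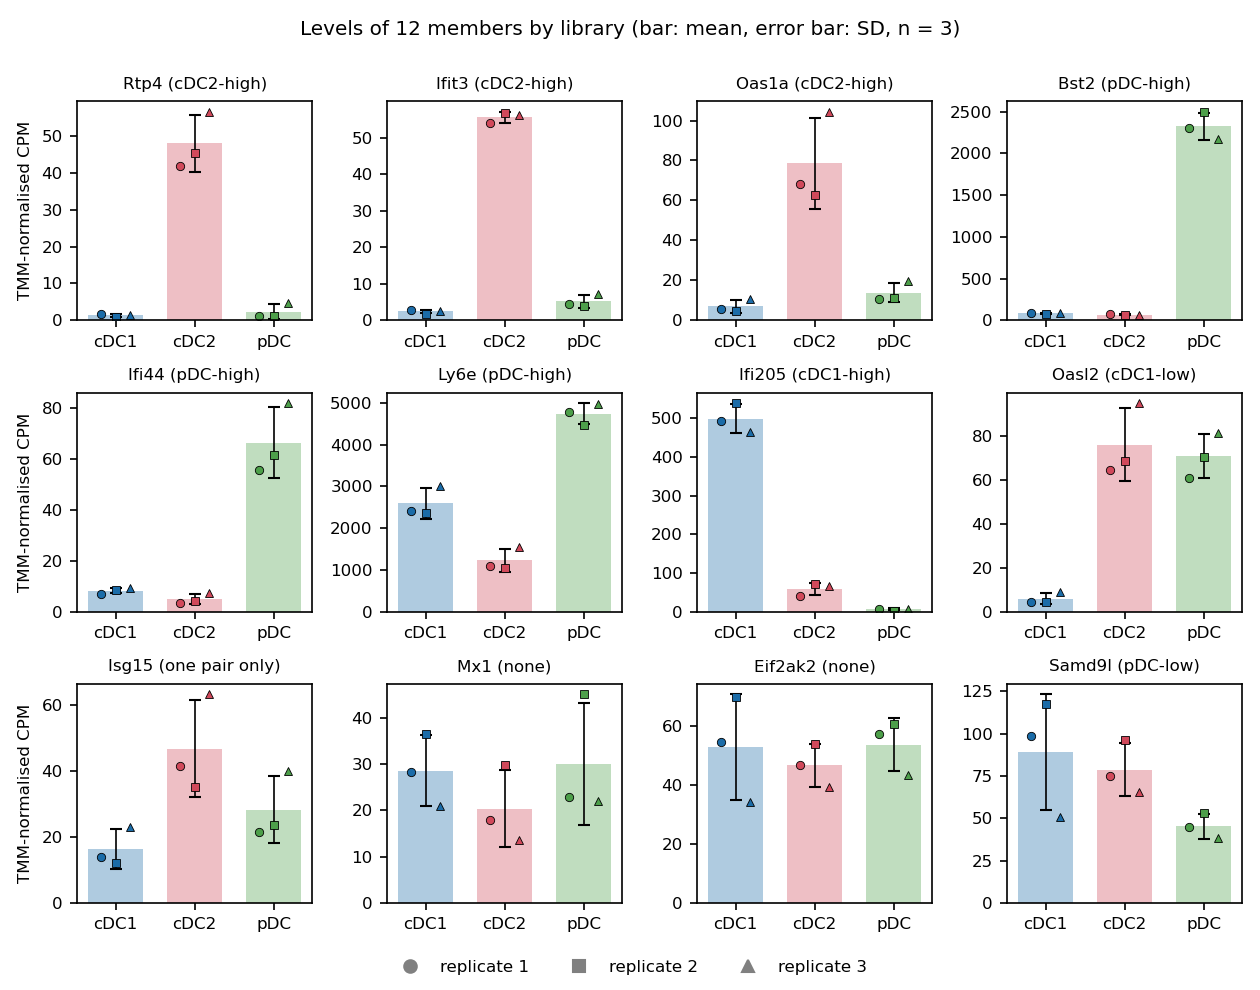
TMM-normalised CPM of 12 genes by subset, with bars at the mean, error bars of 1 SD (n = 3) and one point per library, marked by replicate number. Rtp4, Ifit3 and Oas1a stand high in cDC2 alone, Bst2 and Ifi44 in pDC alone and Ifi205 in cDC1, while the Mx1 and Eif2ak2 points of the 3 subsets overlap.

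Active oligoadenylate synthetases make the second messenger that activates RNase L. The group of these synthetases and their relatives had the largest median log2 fold change between cDC2 and cDC1 of the 6 role groups. It was 3.51, beside 0.03 over all genes tested. Of 7 genes of this family, 5 stood higher in cDC2 than cDC1 and 0 lower, where 12.7% and 11.7% of all genes did. The genes Oas2, Oas3, Oas1c, Oas1g and Oas1a lie in one cluster on chromosome 5, and 4 of these 5 were cDC2-high.

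Oas2 (ENSMUSG00000032690, chr5:120730333-120749853) stood at 11.95, 18.3 and 8.24 CPM in cDC2 and at 0.255, 0.334 and 0.474 in cDC1. In pDC it stood at 0.726, 0.558 and 0 CPM, where 0 of 17104516 counts allows a level of up to 0.177. All cDC2 libraries lay above the rest, and cDC1 and pDC were near the floor. The log2 fold change of cDC2 over cDC1 was 5.21 (SE 0.73, edgeR adjusted p = 0.000622), the largest of the set in that comparison, and that of pDC against cDC2 was -4.79 (SE 0.70, edgeR adjusted p = 0.000348).

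Oas3 (ENSMUSG00000032661, chr5:120753098-120777661) stood at 38.9, 43.1 and 65.9 CPM in cDC2 against 4.66, 4.42 and 9.07 in cDC1 and 7.93, 7.60 and 7.19 in pDC. No cDC2 library overlapped the others. Its log2 fold change was 3.04 over cDC1 (SE 0.31, edgeR adjusted p = 8.39e-05) and -2.70 for pDC against cDC2 (SE 0.30, edgeR adjusted p = 5.87e-05). Oas1c (ENSMUSG00000001166, chr5:120800194-120812514) was lower in reads, at 7.43, 7.60 and 6.48 CPM in cDC2 against 0.692, 0.417 and 0.135 in cDC1 and 0.666, 1.06 and 0.648 in pDC. Its groups were ordered in the same way, with log2 fold changes of 4.02 (SE 0.49, edgeR adjusted p = 0.000271) and -3.17 (SE 0.47, edgeR adjusted p = 0.00036).

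Oas1a and Oas1g are near-copies, with 47.6% and 36.9% of their 75-base windows shared, so the split of reads between them is uncertain. Oas1a stood at 78.5 ± 22.6 CPM (SD, n = 3) in cDC2 against 13.9 ± 4.88 in pDC and 6.98 ± 3.31 in cDC1. It was higher in cDC2 than in cDC1 by 3.51 and lower in pDC than in cDC2 by 2.51 on the log2 scale (edgeR adjusted p = 0.000117 and 0.000292). Its difference between pDC and cDC1 (1.01, edgeR adjusted p = 0.0409) was lost in 5 of 9 fits that left out 1 library, namely cDC1 replicate 1 or 2, cDC2 replicate 1 or 2, or pDC replicate 3 (edgeR adjusted p up to 0.134). It was also lost with upper quartile factors and in the fit of 6 libraries (edgeR adjusted p up to 0.0718). Oas1g (ENSMUSG00000066861, chr5:120876142-120887613) stood at 2.84, 3.43 and 7.92 CPM in cDC2 against 0.401, 0.2502 and 1.08 in cDC1 and 0.212, 0.152 and 2.53 in pDC. The cDC2 libraries all lay above the others, but replicate 3 was several-fold above replicates 1 and 2 in cDC1 and pDC, and no pair passed the threshold. Its log2 fold change of cDC2 over cDC1 was 3.08 with an SE of 1.04 (edgeR adjusted p = 0.0587) and that of pDC against cDC2 was -2.34 with an SE of 1.00 (edgeR adjusted p = 0.0828). With the replicate block both passed, at 3.19 and -2.99 (edgeR adjusted p = 0.00368 and 0.00289), and Oas1g was then cDC2-high.

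The OAS-like genes, whose products lack the synthetase activity in Oasl1 and keep it in Oasl2, lie side by side in another stretch of chromosome 5 and had other orders. Oasl2 was cDC1-low, at 5.87 ± 2.48 CPM (SD, n = 3) in cDC1, 76.0 ± 16.6 in cDC2 and 70.9 ± 10.2 in pDC. It was 3.72 higher in cDC2 and 3.62 higher in pDC than in cDC1 on the log2 scale (edgeR adjusted p = 1.88e-05 and 5.09e-06), and pDC and cDC2 overlapped. Oasl1 (ENSMUSG00000041827, chr5:114923240-114937915) stood at 18.7, 21.5 and 22.3 CPM in pDC against 8.998, 7.55 and 14.4 in cDC1 and 7.81, 7.18 and 17.1 in cDC2. The lowest pDC library lay just above the highest cDC2 library, and replicate 3 was the highest in each subset. Its log2 fold changes were 1.02 over cDC1 (SE 0.35, edgeR adjusted p = 0.0354) and 0.97 over cDC2 (SE 0.35, edgeR adjusted p = 0.0451). Its pDC-high call was close to the threshold in the fit without a block. The first difference was lost without cDC1 replicate 1 or 2 or any 1 of the 3 pDC libraries (edgeR adjusted p up to 0.119), and the second without cDC1 replicate 1, cDC2 replicate 1 or 2 or any 1 pDC library (edgeR adjusted p up to 0.151). The second was also lost with upper quartile or median-of-ratios factors and in the fit of 6 libraries (edgeR adjusted p up to 0.0539). With the replicate block both passed, at 1.09 and 1.08 (edgeR adjusted p = 0.00283 and 0.00304).

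**Figure D4:**
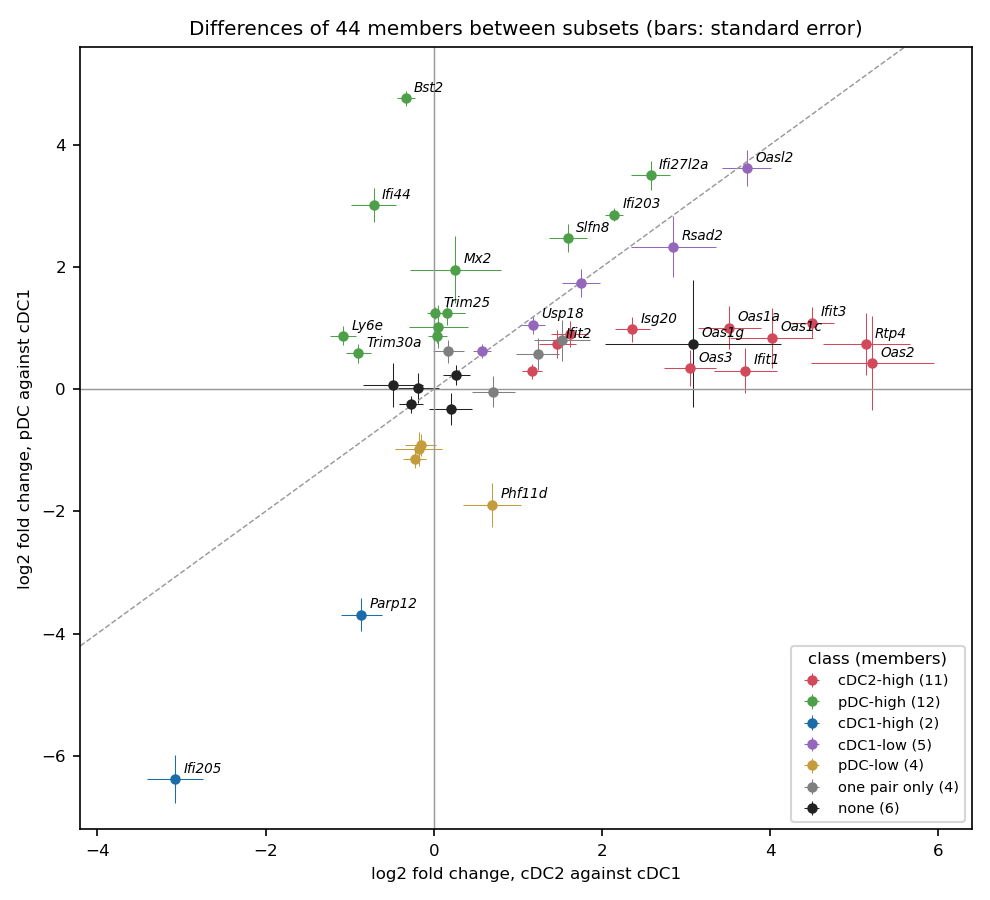
Log2 fold change of each of the 44 genes for cDC2 against cDC1 (horizontal) and pDC against cDC1 (vertical), with bars of 1 standard error, coloured by class. The dashed line marks equal levels in cDC2 and pDC, so Oas2, Rtp4 and Ifit3 stand far to its right, Bst2 and Ifi44 far above it, and Ifi205 lies at the lower left at -3.08 and -6.38.

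Of 10 effectors that act on entry, replication or release of virus, 7 stood higher in pDC than cDC1 and 1 lower, where 24.3% and 24.4% of all genes did. Between pDC and cDC2, 4 were higher in pDC and 2 lower (22.5% and 23.3% of all genes). Bst2 (ENSMUSG00000046718, chr8:71534255-71537456) encodes tetherin, which holds budding virus at the cell surface and is CD317, by which the study describes its pDC. Since the gate may have used it, its level in pDC is given as a description, with no test. Bst2 is still among the 7 and the 4 effectors counted above. It stood at 2299, 2499 and 2176 CPM in pDC against 87.4, 76.1 and 93.8 in cDC1 and 73.1, 68.5 and 62.4 in cDC2, with no overlap between pDC and the rest. The log2 fold change in pDC was 4.76 over cDC1 (SE 0.12) and 5.09 over cDC2 (SE 0.13). Ly6e, which restricts coronavirus entry, was the gene with the most reads, at 4743 ± 254 CPM (SD, n = 3) in pDC against 2589 ± 373 in cDC1 and 1228 ± 271 in cDC2. The subsets did not overlap, and pDC was higher by 0.87 than cDC1 and by 1.95 than cDC2 on the log2 scale (edgeR adjusted p = 0.00116 and 6.88e-06).

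The MX proteins are dynamin-like GTPases that trap viral components. Mx2 (ENSMUSG00000023341, chr16:97535308-97560900) was pDC-high, at 6.45, 15.0 and 9.78 CPM in pDC against 2.51, 3.04 and 2.44 in cDC1 and 2.58, 5.85 and 1.06 in cDC2. Every pDC library lay above every other, by little in replicate 1. The log2 fold changes were 1.96 over cDC1 (SE 0.54, edgeR adjusted p = 0.0137) and 1.70 over cDC2 (SE 0.53, edgeR adjusted p = 0.0257). Without pDC replicate 2 both calls were lost (edgeR adjusted p = 0.0538 and 0.0942). The second was also lost without cDC2 replicate 1, in the fit of the 6 pDC and cDC2 libraries and without replicate 3 of each subset (edgeR adjusted p = 0.0502 and 0.0512 in the latter fits). With the replicate block both passed, at 1.90 and 1.82 (edgeR adjusted p = 0.00351 and 0.00442). Mx1 (ENSMUSG00000000386, chr16:97447035-97462907) did not separate the subsets, at 28.3, 36.4 and 21.1 CPM in cDC1, with 17.8, 29.8 and 13.6 in cDC2 and 22.9, 45.2 and 22.0 in pDC. Replicate 2 was the highest in each subset, and the subsets overlapped. The log2 fold changes of Mx1 were -0.49 in cDC2 against cDC1 and 0.55 in pDC against cDC2 (edgeR adjusted p = 0.396 and 0.245). Within replicate numbers, cDC2 was the lowest subset in 3 of 3, and with the replicate block both differences passed, at -0.53 and 0.55 (edgeR adjusted p = 0.0145 and 0.00712). Standard laboratory strains such as C57BL/6 carry a defective Mx1 allele, so the level of the Mx1 transcript says nothing of the protein. The level of Mx2 is also that of a transcript, and whether it yields a working protein was not measured here.

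Rsad2, which encodes viperin, and Cmpk2, a nucleotide kinase beside it on chromosome 12, were both cDC1-low. Rsad2 stood at 35.1 ± 13.4 CPM (SD, n = 3) in cDC2 against 24.6 ± 18.9 in pDC and 4.83 ± 0.7504 in cDC1. Its pDC value was uneven, with 13.1, 14.3 and 46.4 CPM in replicates 1 to 3. It was higher than in cDC1 by 2.85 in cDC2 and 2.33 in pDC on the log2 scale (edgeR adjusted p = 0.00249 and 0.00333). Cmpk2 stood at 19.6 ± 4.59, 19.5 ± 3.42 and 5.83 ± 0.868 CPM in cDC2, pDC and cDC1. Isg20, an exonuclease, was cDC2-high at 34.9 ± 3.23 CPM, against 13.5 ± 3.66 in pDC and 6.78 ± 0.445 in cDC1.

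Schlafen proteins act on transfer RNA and viral translation. Slfn8 was pDC-high, at 97.8 ± 18.9 CPM (SD, n = 3), with 53.5 ± 10.1 in cDC2 and 17.6 ± 4.39 in cDC1, a log2 difference of 2.47 between pDC and cDC1 (edgeR adjusted p = 1.44e-05). Slfn5 (ENSMUSG00000054404, chr11:82951349-82964840), its neighbour on chromosome 11, stood at 96.8, 123 and 55.5 CPM in cDC1, with 101, 125 and 90.9 in cDC2 and 74.9, 82.5 and 62.7 in pDC. The lowest cDC2 library lay above the highest pDC library, but no pair of subsets passed the threshold, and pDC against cDC2 came nearest at -0.53 (SE 0.26, edgeR adjusted p = 0.124). That pair passed with the replicate block, at -0.52 (edgeR adjusted p = 0.0113). Samd9l, an inhibitor of translation, was pDC-low, at 45.2 ± 7.41 CPM against 89.1 ± 34.4 in cDC1 and 78.8 ± 15.7 in cDC2. The lower level than cDC1 (-0.98, edgeR adjusted p = 0.016) was lost without cDC1 replicate 1 or 2 (edgeR adjusted p up to 0.0656). The lower level than cDC2 (-0.80, edgeR adjusted p = 0.0405) was lost without cDC1 replicate 1, cDC2 replicate 1 or 2 or pDC replicate 1 or 3 (edgeR adjusted p up to 0.143). Both passed with the replicate block, at -0.93 and -0.80 (edgeR adjusted p = 0.000655 and 0.0017).

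ISG15 is a ubiquitin-like protein that is joined to other proteins, HERC6 is its ligase in mice and USP18 removes it and dampens signalling at IFNAR. Isg15 stood at 46.6 ± 14.7 CPM (SD, n = 3) in cDC2 against 28.2 ± 10.1 in pDC and 16.3 ± 5.92 in cDC1. It was higher in cDC2 than in cDC1 by 1.52 on the log2 scale (edgeR adjusted p = 0.00802), and pDC stood between them, at 0.80 from cDC1 and -0.73 from cDC2 (edgeR adjusted p = 0.0724 and 0.0968). Each replicate number on its own gave that order, and with the replicate block both steps passed, at 0.79 and -0.74 (edgeR adjusted p = 0.000282 and 0.000394). Herc6 was cDC2-high, at 61.3 ± 7.91 CPM against 33.4 ± 1.40 in pDC and 27.3 ± 1.52 in cDC1. Another annotated gene on its strand, Gm45193, overlaps 13.7% of the exon bases of Herc6. Usp18 was cDC1-low, at 77.6 ± 13.5 CPM in cDC2 against 71.4 ± 8.45 in pDC and 34.3 ± 2.35 in cDC1.

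Both tripartite motif genes of the set were pDC-high. Trim25 (ENSMUSG00000000275, chr11:88999376-89020293), the ubiquitin ligase for the RNA sensor RIG-I, stood at 192, 186 and 172 CPM in pDC against 79.0, 82.5 and 71.3 in cDC1 and 82.5, 80.1 and 73.0 in cDC2. The pDC libraries lay above all others, and cDC1 and cDC2 overlapped at the same level. In pDC the log2 fold change was 1.24 over cDC1 (SE 0.10, edgeR adjusted p = 6.18e-06) and 1.23 over cDC2 (SE 0.10, edgeR adjusted p = 7.51e-06). Trim30a stood at 461 ± 66.7 CPM (SD, n = 3) in pDC against 308 ± 37.1 in cDC1 and 165 ± 25.5 in cDC2, with 3 steps that all passed.

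The PARP genes encode ADP-ribosyltransferases, and DTX3L is the ubiquitin ligase partner of PARP9. Parp12 (ENSMUSG00000038507, chr6:39086410-39118349) was cDC1-high, at 70.0, 78.6 and 82.8 CPM in cDC1, with 36.8, 39.9 and 50.5 in cDC2 and 5.24, 3.95 and 8.90 in pDC. The subsets did not overlap. Its log2 fold change in pDC was -3.69 against cDC1 (SE 0.28, edgeR adjusted p = 3.24e-06) and -0.86 for cDC2 against cDC1 (SE 0.24, edgeR adjusted p = 0.0278). The smaller step was lost without any 1 of the cDC1 libraries or without cDC2 replicate 1 or 2 (edgeR adjusted p up to 0.108). It passed with the replicate block, at -0.88 (edgeR adjusted p = 0.00218). Parp14 was higher in cDC2, at 173 ± 27.3 CPM (SD, n = 3), than in cDC1, at 73.5 ± 22.8, by 1.23 on the log2 scale (edgeR adjusted p = 0.00669). In pDC it stood at 109 ± 28.3 CPM, -0.66 from cDC2 (edgeR adjusted p = 0.0611), and -0.69 with the replicate block (edgeR adjusted p = 0.000279).

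Parp9 and Dtx3l lie head to head on chromosome 16, and 9.40% of the exon bases of Parp9 overlap Dtx3l on the other strand. Whether the counting used the strand is not given in the sources used here, so reads from that overlap cannot be told apart. Parp9 was cDC1-low by a small step, at 60.5 ± 6.69 CPM (SD, n = 3) in cDC1, 90.2 ± 4.86 in cDC2 and 93.4 ± 4.12 in pDC. Dtx3l (ENSMUSG00000049502, chr16:35926511-35939151) stood at 105, 116 and 79.2 CPM in cDC1, with 113, 128 and 121 in cDC2 and 127, 130 and 96.7 in pDC. The subsets overlapped, and the log2 fold change of Dtx3l was 0.27 for cDC2 against cDC1 (SE 0.16, edgeR adjusted p = 0.29) and 0.24 for pDC against cDC1 (SE 0.16, edgeR adjusted p = 0.261).

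The PYHIN family, whose members bind DNA through a HIN domain, held 3 genes within one cluster on chromosome 1 with 3 different orders. Ifi205 (ENSMUSG00000054203, chr1:174011998-174031810) stood at 492, 539 and 465 CPM in cDC1, with 41.3, 70.8 and 65.4 in cDC2 and 7.23, 2.74 and 7.95 in pDC. The subsets were far apart in every replicate. On the log2 scale pDC differed from cDC1 by -6.38 (SE 0.40, edgeR adjusted p = 1.07e-06), the largest fall of the set, and cDC2 by -3.08 (SE 0.34, edgeR adjusted p = 0.000131). Ifi203 ran the other way and was pDC-high, at 155 ± 2.99 CPM (SD, n = 3), with 94.3 ± 7.06 in cDC2 and 21.3 ± 1.40 in cDC1. Between pDC and cDC1 it differed by 2.86 on the log2 scale (edgeR adjusted p = 6.16e-08). Ifi204 stood at 18.2 ± 6.61 CPM in cDC2 against 11.1 ± 1.62 in cDC1 and 10.8 ± 1.39 in pDC. Only the step between pDC and cDC2 passed (-0.75, edgeR adjusted p = 0.0371), and it was lost in 6 of 9 fits without 1 library, those without cDC1 replicate 1 or 2, cDC2 replicate 1 or 3 or pDC replicate 1 or 2 (edgeR adjusted p up to 0.134), and in the fit of 6 libraries (edgeR adjusted p = 0.0697). With the replicate block Ifi204 was cDC2-high, at 0.67 over cDC1 and -0.70 from cDC2 to pDC (edgeR adjusted p = 0.0215 and 0.0108). Between 5.71% and 16.6% of the 75-base windows of these genes are shared with relatives such as Mndal, so their reads are uncertain to that extent.

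Among the remaining genes, Rtp4 (ENSMUSG00000033355, chr16:23520291-23614222), a chaperone of membrane receptors that also restricts flaviviruses, stood at 41.9, 45.3 and 56.5 CPM in cDC2 against 1.64, 1.04 and 1.35 in cDC1 and 1.09, 1.32 and 4.65 in pDC. All cDC2 libraries lay well above the others, and cDC1 and pDC overlapped. The log2 fold change of cDC2 over cDC1 was 5.14 (SE 0.52, edgeR adjusted p = 7.96e-05) and that of pDC against cDC2 was -4.40 (SE 0.49, edgeR adjusted p = 5.78e-05). Another gene on its strand, Gm45338, overlaps 13.9% of the exon bases of Rtp4. Xaf1, which promotes apoptosis by binding XIAP, was cDC2-high at 29.2 ± 2.33 CPM (SD, n = 3), against 17.9 ± 1.52 in pDC and 9.60 ± 3.18 in cDC1. Its step between pDC and cDC2 (-0.71, edgeR adjusted p = 0.0201) was lost without cDC2 replicate 1 or 2 or pDC replicate 1 (edgeR adjusted p up to 0.0699).

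Ifi44 (ENSMUSG00000028037, chr3:151730922-151749960), a cytoplasmic protein of the interferon response, was the second of the pDC-high class, at 55.8, 61.7 and 82.2 CPM in pDC against 7.10, 8.51 and 9.14 in cDC1 and 3.57, 4.31 and 7.33 in cDC2. The pDC libraries did not overlap the rest. They exceeded cDC1 by 3.01 on the log2 scale (SE 0.27, edgeR adjusted p = 1.18e-05) and cDC2 by 3.73 (SE 0.28, edgeR adjusted p = 3.97e-06). Lgals3bp (ENSMUSG00000033880, chr11:118392751-118402092), a secreted galectin-binding glycoprotein, stood at 314, 304 and 374 CPM in pDC against 123, 119 and 174 in cDC1 and 145, 122 and 199 in cDC2. Replicate 3 was the highest in each subset, and no cDC library reached the pDC libraries. Its log2 fold change was 1.25 over cDC1 (SE 0.21, edgeR adjusted p = 0.000687) and 1.09 over cDC2 (SE 0.21, edgeR adjusted p = 0.00174).

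Ifi27l2a, a small mitochondrial protein, stood at 203 ± 15.8 CPM (SD, n = 3) in pDC against 107 ± 14.5 in cDC2 and 18.0 ± 6.46 in cDC1, a step of 3.50 between pDC and cDC1 on the log2 scale (edgeR adjusted p = 1.73e-06). Sp100, a protein of nuclear bodies, was pDC-high at 385 ± 42.7 CPM, with 216 ± 9.50 in cDC2 and 210 ± 24.0 in cDC1. Ifi35 (ENSMUSG00000010358, chr11:101448407-101458698), a leucine zipper protein, stood at 96.6, 95.5 and 116 CPM in cDC1, with 79.2, 76.6 and 100.1 in cDC2 and 80.6, 81.2 and 97.3 in pDC. The subsets overlapped, and cDC1 was the highest within each replicate number. Its log2 fold changes were -0.27 for cDC2 and -0.25 for pDC against cDC1 (edgeR adjusted p = 0.217 and 0.175), and with the replicate block the same sizes passed (edgeR adjusted p = 0.0104 and 0.00922).

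The PHD finger genes Phf11b and Phf11d, neighbours on chromosome 14, were both pDC-low. Phf11b stood at 62.7 ± 10.5 CPM (SD, n = 3) in pDC against 119 ± 11.4 in cDC2 and 139 ± 11.3 in cDC1, and Phf11d at 3.87 ± 1.86, 22.9 ± 6.95 and 14.2 ± 3.71 CPM. Phf11d had a log2 fold change of -2.58 for pDC against cDC2 (edgeR adjusted p = 0.000285). With the replicate block the step between cDC2 and cDC1 also passed in both, in opposite directions, at -0.23 in Phf11b and 0.68 in Phf11d (edgeR adjusted p = 0.0394 and 0.00951). Of the 75-base windows of Phf11b, 26.8% are shared with relatives, so its reads are uncertain.

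Within the 44 genes, 15 neighbouring pairs lay less than 200000 bases apart, and 6 of these pairs had one class. The share among other pairs of genes was not computed, so these counts are a description and say nothing of neighbours in general. The Ifit cluster, the stretch from Oas2 to Oas1c, Rsad2 with Cmpk2 and Phf11b with Phf11d had one class, while Mx1 and Mx2, Slfn5 and Slfn8, Oasl1 and Oasl2 and the PYHIN genes did not. With the replicate block 7 pairs had one class, since Phf11b and Phf11d then parted and Oas1g joined the cDC2-high class of its neighbours.

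Libraries with the same replicate number carry the same date code in the labels, and a part of the set moved with that number. In 17 of 44 genes (38.6%) replicate 3 was the highest in all 3 subsets, beside 17.3% of all genes tested. In 10 (22.7%) it was the lowest in all 3, which is near the 19.3% of all genes tested. Isg15 was higher in replicate 3 than in the mean of replicates 1 and 2 by 0.82 in cDC1, 0.72 in cDC2 and 0.82 in pDC on the scale of log2(CPM + 0.5). Oas1a was higher by 1.02, 0.67 and 0.79. The opposite held for Samd9l, at -1.07, -0.37 and -0.35, for Parp14, at -0.83, -0.38 and -0.65, and for Mx1, at -0.60, -0.75 and -0.54. The 17 genes highest in replicate 3 had a median exon length of 3561 bases (range 756 to 9292), and the 10 lowest had 5590.5 (range 2405 to 9306). Replicate 3 also had the lowest total count in each subset and the highest sum of NK cell genes, at 39.7, 120 and 49.96 CPM in cDC1, cDC2 and pDC. The part of depth, transcript length or other cells in this was not tested.

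**Figure D5:**
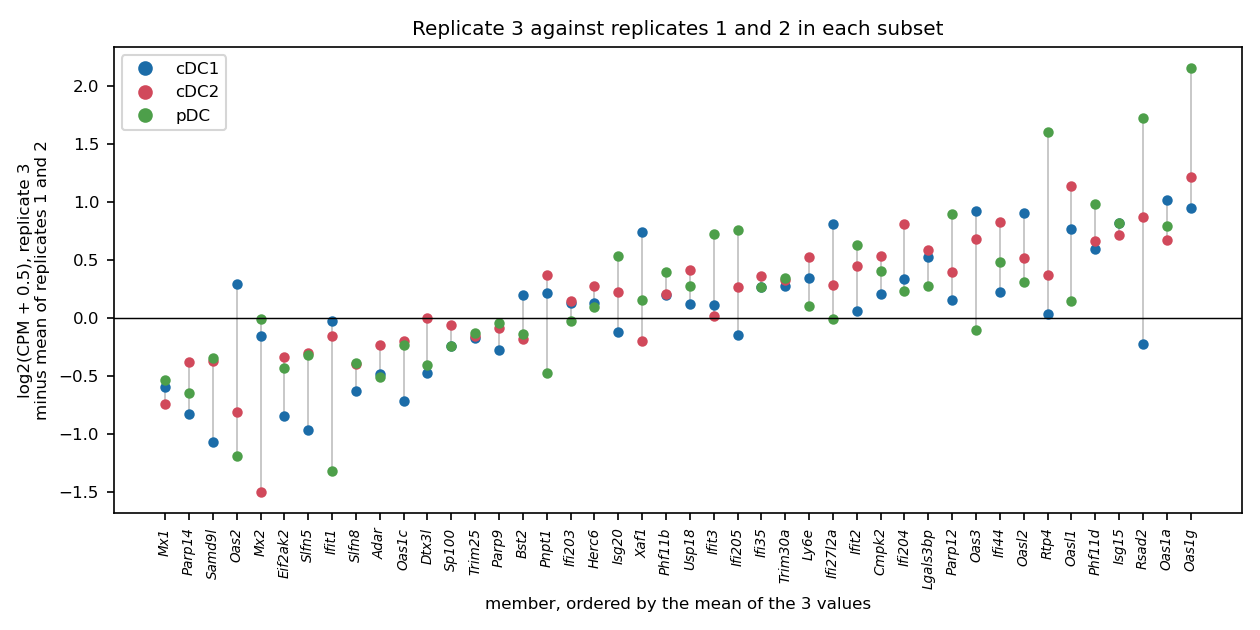
Replicate 3 minus the mean of replicates 1 and 2, on the scale of log2(CPM + 0.5), for each of the 44 genes in cDC1 (blue), cDC2 (red) and pDC (green). For most genes the 3 points lie on one side of 0, from Mx1 and Parp14 below to Oas1a and Oas1g above.

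With the replicate number as a block in the edgeR fit, 10 genes changed class, as given above for each, and 16 genes were cDC2-high, 13 pDC-high and 2 without a difference (Dtx3l and Eif2ak2). In that fit 9.26%, 21.2% and 28.5% of all genes tested fell in these classes. Of the 85 differences past the threshold, 71 stayed past it under each of 19 alternative fits that could test them, all at the same threshold. The other 14 belonged to 10 genes, named above with the libraries without which they were lost, other than Bst2. With the replicate block all 85 stayed past the threshold. The lower level of Bst2 in cDC2 than in cDC1 (-0.33, edgeR adjusted p = 0.0487) was lost in 6 of 9 fits without 1 library, those without cDC1 replicate 1 or 3, any 1 cDC2 library or pDC replicate 1 (edgeR adjusted p up to 0.138). It was also lost with limma-voom, with scaling by library size only, under both other filters, in the fit of 6 libraries and without replicate 3 of each subset (adjusted p from 0.0575 to 0.164).

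Of 13 genes for the receptor, ISGF3 and related factors, 6 were pDC-high, 0 were cDC2-high and 1 was cDC1-high, beside 17.2%, 6.53% and 7.14% of all genes tested. With the replicate block 9 were pDC-high, beside 21.2% of all genes. Between pDC and cDC2, 6 were higher in pDC and 0 lower (22.5% and 23.3% of all genes), and between cDC2 and cDC1, 2 were higher and 1 lower (12.7% and 11.7%). Ifnar2, a chain of the receptor, stood at 364 ± 31.2 CPM (SD, n = 3) in pDC against 126 ± 7.98 in cDC2 and 74.7 ± 2.88 in cDC1. The inhibitor Socs3 stood at 26.9 CPM in pDC on average, 8.42 in cDC2 and 4.93 in cDC1, 2.48 above cDC1 on the log2 scale (edgeR adjusted p = 0.00575). The kinase gene Tyk2 was lower in cDC2 and pDC than in cDC1, with log2 fold changes of -0.78 and -0.60 (edgeR adjusted p = 0.000303 and 0.000628). Irf7, the factor for interferon genes in pDC, was named after its values were seen, at 523 ± 90.6 CPM in pDC against 128 ± 38.9 in cDC2 and 136 ± 34.7 in cDC1.

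Few reads were counted on interferon genes. Of 19 listed genes for type I, II and III interferons, 12 had no read in any library and none had enough for a test. Ifng had 86 reads, 59 of them in cDC2 replicate 3, the library with the highest sum of NK cell genes, at 120 CPM. The part of NK cells in these reads was not tested. The other 18 genes had 20 reads in all, 12 of them from Ifnb1. Many type I interferon genes are near-copies, and whether reads with several matches were counted is not given in the sources used here, so a count of 0 does not show that a transcript was absent. The exonuclease gene Trex1, from the list that follows, also had 0 reads in all 9 libraries. A list of 46 other interferon-stimulated genes, of which 43 were tested, was read beside the set. Like the set, the list was chosen with earlier results of these data known, so its counts are no independent support. In cDC2, 24 were higher than in cDC1 and 2 lower (12.7% and 11.7% of all genes). In pDC, 18 were higher than in cDC1 and 8 lower (24.3% and 24.4%), and 9 were higher than in cDC2 and 20 lower (22.5% and 23.3%). By class, 15 were cDC2-high and 8 pDC-high, beside 6.53% and 17.2% of all genes. The RNA sensor gene Ddx58 stood at 94.0 CPM in cDC2 on average, against 4.03 in cDC1 and 6.93 in pDC, and the entry inhibitor Ifitm1 at 64.5, 2.24 and 1.87 CPM. The surface antigen genes Ly6c2 and Ly6a were pDC-high, with log2 fold changes over cDC1 of 6.48 and 4.77 (edgeR adjusted p = 2.39e-05 and 0.000323).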

How the data were processed

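RNA from 9 libraries of sorted splenic DC, 3 per subset, was sequenced from poly(A)-selected, stranded libraries as single-end reads of 75 bases. The authors deposited raw counts of reads per gene in one table, which were not normalised. The submitters' processing notes name STAR, SAMtools, featureCounts, MultiQC and the build mm10. The annotation, the strand setting and the treatment of reads with several matches are not given in the sources used here, and the paper's methods name Degust without a statistical method. Every column of the table was used, and groups and replicate numbers came from the labels.

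Tests were run in edgeR 4.0.16 under R 4.3.3 (filterByExpr with a minimum count of 10, TMM factors, one quasi-likelihood fit of the 9 libraries with the subset as the only term). Benjamini-Hochberg adjustment covered the 13819 genes tested. The 44 genes, their role groups and the other lists were chosen with earlier results of these data known. Values for each library were given for the 6 genes of each class highest in one subset with the largest smaller difference and a mean count of at least 100, and for all genes without a difference. In each other list, at most 2 genes with the largest rise and 2 with the largest fall were named by rule.

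Same-numbered libraries share a date code in the labels, and their deviations from the subset means correlated across genes at 0.353 on average over 9 pairs (range 0.233 to 0.474). The alternatives were the replicate block, DESeq2 1.42.0, limma-voom (limma 3.58.1), other factors and filters, fits of 6 libraries, each library left out in turn and replicate 3 of each subset left out, which make 19 fits. A stricter adjusted p and a minimum fold change were applied to counts of genes only. Chi-square tests between replicates gave at least 9.93 per degree of freedom, beyond sampling noise, and each counted as 1 sample. Scripts were tested on simulated counts. Positions, exon lengths and shared 75-base windows came from GENCODE on GRCm38 (the build mm10). Figures were drawn with matplotlib 3.10.9 in Python 3.11.15.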

Additional observations from a re-analysis of the deposited data

How the results depend on the processing

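No difference among the 85 past the threshold changed direction under any of the 19 alternative fits, which leave out the stricter thresholds, and of the values recomputed 1543 kept their call and 68 lost the threshold. With the replicate block, that is the paired fit, 33 genes differed between cDC2 and cDC1, 33 between pDC and cDC1 and 36 between pDC and cDC2, 16 were cDC2-high, 13 pDC-high and 2 without a difference, and it removed no call among the 85. Leaving out 1 library at a time gave 24 to 27 genes between cDC2 and cDC1 (26 with all libraries), 25 to 31 between pDC and cDC1 (29), 25 to 32 between pDC and cDC2 (30), 9 to 14 cDC2-high (11), 10 to 12 pDC-high (12) and 6 to 9 without a difference (6). Requiring a log2 fold change of at least 1 left 19 genes between pDC and cDC1, 18 between pDC and cDC2 and 5 pDC-high, with 12 in no pair. The cDC2-high class also lost Ifit2, Xaf1 and Herc6, whose smaller differences were 0.73, 0.71 and 0.88. An adjusted p under 0.01 left 11 genes in no pair, and without replicate 3 of each subset 3 were in no pair. DESeq2 gave 13 cDC2-high and 12 pDC-high genes, and limma-voom 14 and 12. Apart from the classes with the replicate block, shares of all genes tested were not computed for these settings. The counts therefore describe the set alone. Scaling by library size only moved the median of all genes by 0.11 on the log2 scale for cDC2 against cDC1, and 23 genes of the set were then higher and 4 lower. The causes of these changes were not tested, other than that stricter thresholds leave fewer calls by construction.

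The limits are 3 pools per subset, reads shared between near-copies such as Oas1a with Oas1g and Ifit3 with Ifit3b, an unknown strand setting for overlapping genes, and levels near the floor of 3 counts for Oas2, Oas1c and Oas1g in cDC1 and pDC, where fold changes are least certain.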
